A study of Mus musculus with 8 samples.

Results

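The 35 genes described here encode transcription factors and cofactors of heart development, from the GATA, NK homeobox, T-box, bHLH, MEF2, TEAD, Iroquois, MEIS and related families. Accessible chromatin of E10.5 mouse hearts was profiled by ATAC-seq, a method that cuts and tags open DNA with the transposase Tn5. The lists of differential peaks held 118 peaks that belonged to these genes, of 15736 peaks in all. A peak belonged to a gene if the nearest transcription start site (TSS) of a protein-coding transcript was that of the gene, or if the peak lay within 10 kb of the gene body. Start sites and genes were those of GENCODE release M21 in mm10 coordinates. The start sites of a gene of the set were taken as those of its protein-coding transcripts unless stated. Of the 118 peaks, 103 had a higher signal in *Chd4-CMko* hearts (gained peaks) and 15 had a higher signal in WT hearts (lost peaks).

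The study held 4 samples of WT and 4 of *Chd4-CMko* hearts. *Chd4* encodes the ATPase of the nucleosome remodelling and deacetylase complex (NuRD). In the cross the study gives for embryos of this stage, *Chd4* fl/fl females were mated with males carrying *Tnnt2* Cre/+ and *Chd4* fl/+, so that the Cre is driven by *Tnnt2*, the cardiac troponin T gene, and acts in cardiomyocytes. The control hearts are labelled WT and their *Chd4* and Cre alleles are not given further. Whole hearts were pooled, 3 per sample in one source and 4 in another, and they also hold endocardial, epicardial, mesenchymal and blood cells that the Cre is not meant to reach. Each list gives a position and a score per peak and no value per sample, so differences between genotypes come without replicate error or p-value here, and the deletion of *Chd4* could not be checked. The read depth behind a peak is unknown. In such bulk samples, fewer cells of a type and less accessibility per cell cannot be told apart.

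These factors form the network that specifies and patterns the heart. GATA4, NKX2-5, TBX5, HAND2, MEF2C and ISL1 act at enhancers of contractile and chamber genes and often bind together, and several of them regulate each other's genes. Genes of this kind lie in wide intergenic regions that carry many enhancers, active in different tissues, so a peak far from a start site may act on the gene, on a neighbour or on neither. ATAC-seq shows that a site is open and does not show which gene it serves.

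Sequences are given for the peaks on which the description turns. They are forward-strand sequence of GRCm38, which is mm10, and capitals mark motifs of cardiac factors found by an exact search on both strands. The motif searched was AGATAA for the GATA factors. It was CATTCC for the TEAD factors, and either AGGTGTGA or AGGTGTTA for the T-box factors. For NKX2-5 it was TNAAGTG and for MEIS factors TGACAG. The E-box of HAND-type bHLH factors was searched as CATCTG, and MEF2 and SRF sites by their consensus. A capital run on the minus strand appears as its reverse complement. Gained peaks that covered a start site of the gene itself were found at 4 genes. As examples of peaks at the start of a gene of the set, 3 of these, at *Tead3*, *Irx1* and *Nkx2-6*, are shown, and they held no cardiac motif. The remaining start site peak, at *Tead1*, held a TEAD motif and had the highest score of the gained peaks, and its sequence is not shown.
Tead3 gained peak, chr17:28350299-28350449, plus strand: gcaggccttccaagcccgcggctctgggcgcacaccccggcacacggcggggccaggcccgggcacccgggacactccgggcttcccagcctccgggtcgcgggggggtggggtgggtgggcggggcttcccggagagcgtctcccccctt
Irx1 gained peak, chr13:71963672-71963822, plus strand: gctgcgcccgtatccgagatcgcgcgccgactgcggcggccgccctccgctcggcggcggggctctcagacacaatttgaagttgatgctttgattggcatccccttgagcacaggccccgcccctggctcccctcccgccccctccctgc
Nkx2-6 gained peak, chr14:69171675-69171825, plus strand: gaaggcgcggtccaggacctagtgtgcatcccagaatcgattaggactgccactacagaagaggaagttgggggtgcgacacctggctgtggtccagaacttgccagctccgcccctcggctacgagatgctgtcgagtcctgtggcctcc

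Of the 103 gained peaks, 15 held 2 or more kinds of cardiac motif (14.6%, Wilson 95% interval 9.03 to 22.6%), against 15.6% of the other gained peaks. The following 6 were taken in order of the number of kinds and then of score, and a peak of *Gata6* with a score of 170.5 was left out. They are shown because motifs of the factors occur there near the genes of the factors themselves. A match of letters is a description and does not show binding.
Meis1 gained peak, chr11:18925065-18925215, plus strand: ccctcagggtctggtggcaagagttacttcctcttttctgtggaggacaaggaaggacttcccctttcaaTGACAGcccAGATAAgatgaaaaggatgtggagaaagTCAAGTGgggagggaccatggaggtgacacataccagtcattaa
Tead3 gained peak, chr17:28340765-28340915, plus strand: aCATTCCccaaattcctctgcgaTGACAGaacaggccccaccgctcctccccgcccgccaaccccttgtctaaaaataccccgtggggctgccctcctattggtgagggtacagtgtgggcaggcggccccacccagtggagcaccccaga
Tbx1 gained peak, chr16:18604416-18604566, plus strand: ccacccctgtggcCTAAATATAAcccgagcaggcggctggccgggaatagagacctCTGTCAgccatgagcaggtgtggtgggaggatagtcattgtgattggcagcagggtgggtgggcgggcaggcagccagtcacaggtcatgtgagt
Nkx2-5 gained peak, chr17:26813602-26813752, plus strand: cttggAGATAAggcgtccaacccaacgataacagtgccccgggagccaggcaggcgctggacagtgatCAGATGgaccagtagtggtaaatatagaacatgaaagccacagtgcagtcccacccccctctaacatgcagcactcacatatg
Gata4 gained peak, chr14:63317582-63317732, plus strand: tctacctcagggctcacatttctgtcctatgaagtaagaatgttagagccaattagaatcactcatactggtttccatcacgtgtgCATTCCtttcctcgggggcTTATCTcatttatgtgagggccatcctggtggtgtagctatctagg
Tbx5 gained peak, chr5:119964906-119965056, plus strand: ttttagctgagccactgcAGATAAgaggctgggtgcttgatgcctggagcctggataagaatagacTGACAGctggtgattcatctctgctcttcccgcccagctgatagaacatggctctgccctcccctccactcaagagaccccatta

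The *Meis1* interval held GATA, NKX2-5 and MEIS motifs. The *Tead3* interval held TEAD and MEIS, that of *Tbx1* MEIS and MEF2, that of *Nkx2-5* GATA and an E-box, that of *Gata4* GATA and TEAD, and that of *Tbx5* GATA and MEIS. Among the lost peaks, the highest-scoring interval of *Zfpm2*, *Tead1* and *Myocd* is shown, since these 3 lay inside the gene and held a motif. Most lost peaks held none, as a cardiac motif was in 5 of 15 (33.3%), against 55.9% of the other lost peaks.
Zfpm2 lost peak, chr15:40824424-40824574, plus strand: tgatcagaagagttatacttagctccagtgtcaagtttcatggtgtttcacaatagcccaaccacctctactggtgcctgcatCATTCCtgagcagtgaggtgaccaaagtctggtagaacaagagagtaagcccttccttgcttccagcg
Tead1 lost peak, chr7:112770750-112770900, plus strand: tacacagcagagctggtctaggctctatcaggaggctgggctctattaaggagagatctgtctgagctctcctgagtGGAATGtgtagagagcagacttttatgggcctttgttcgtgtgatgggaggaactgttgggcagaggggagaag
Myocd lost peak, chr11:65257955-65258105, plus strand: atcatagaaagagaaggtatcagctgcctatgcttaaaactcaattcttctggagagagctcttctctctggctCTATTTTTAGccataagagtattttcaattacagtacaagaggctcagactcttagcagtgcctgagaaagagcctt

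The lost intervals in *Zfpm2* and *Tead1* each held 1 TEAD motif, and the *Myocd* interval held 1 MEF2 motif at bases 75 to 84 of the peak, counted from its lowest coordinate.

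Most of the genes had a gained peak and few had a lost one. A gained peak belonged to 30 of the 35 genes (85.7%, Wilson 95% interval 70.6 to 93.7%), against 38.2% of the 21938 protein-coding genes assigned in the same way. A lost peak belonged to 10 of the 35 (28.6%, 16.3 to 45.1%), against 11.1% of all protein-coding genes. Both kinds were found at 9 genes, *Gata6*, *Tbx20*, *Mef2a*, *Mef2c*, *Isl1*, *Myocd*, *Tead1*, *Meis1* and *Meis2*. *Zfpm2* had lost peaks only, and *Irx6*, *Tead4*, *Shox2* and *Hopx* had none of either kind. Intervals of this kind cover counting error only.

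The number of peaks a gene can collect grows with the sequence assigned to it, here called its territory, and these genes have wide ones. Their median territory was 288 kb, against 59.3 kb over all protein-coding genes. Of the 2339 protein-coding genes with a territory of at least 288 kb, 63.6% had a gained and 37.2% a lost peak. Of the 18 cardiac factor genes that wide, 16 had a gained peak (88.9%, 67.2 to 96.9%) and 9 a lost one (50%, 29.0 to 71.0%). Below that width, 35.2% of 19599 genes had a gained and 8.0% a lost peak. Of the other 17 cardiac factor genes, 14 had a gained peak (82.4%, 59.0 to 93.8%) and 1 a lost peak (5.88%, 1.05 to 27.0%). In both classes of width the interval of the gained share lay above the share of all genes, and the interval of the lost share included it. Widths were not matched within a class. The 17 narrower cardiac factor genes had a median territory of 83.2 kb, against 52.2 kb over all genes below that width, and the 18 wider ones 468 kb, against 507 kb.

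Per Mb of territory, the 35 genes carried 8.42 gained and 1.23 lost peaks over 12.2 Mb, against 4.91 and 1.04 over all genes. The lost density depended on the assignment. It was 4.29 within 10 kb of the gene body alone and 2.36 with the nearest start site up to 100 kb, and densities over all genes are not given at these settings. Gained peaks were 87.3% of their listed peaks (80.1 to 92.1%), against 82.5% of the other listed peaks. The interval of the former included the latter. The order turned when peaks were assigned within 10 kb of the gene body alone (73.9% against 82.8%) or to the nearest start site up to 100 kb (82.1% against 83.2%). At least 5 gained peaks were found at 7 of the genes (20%, 10.0 to 35.9%), against 2.38% of all genes. By width, they were 5 of the 18 wider genes (27.8%, 12.5 to 50.9%), against 13.1% of all genes that wide, a share within the interval, and 2 of the 17 narrower ones (11.8%, 3.29 to 34.3%), against 1.10%.

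**Figure D1:**
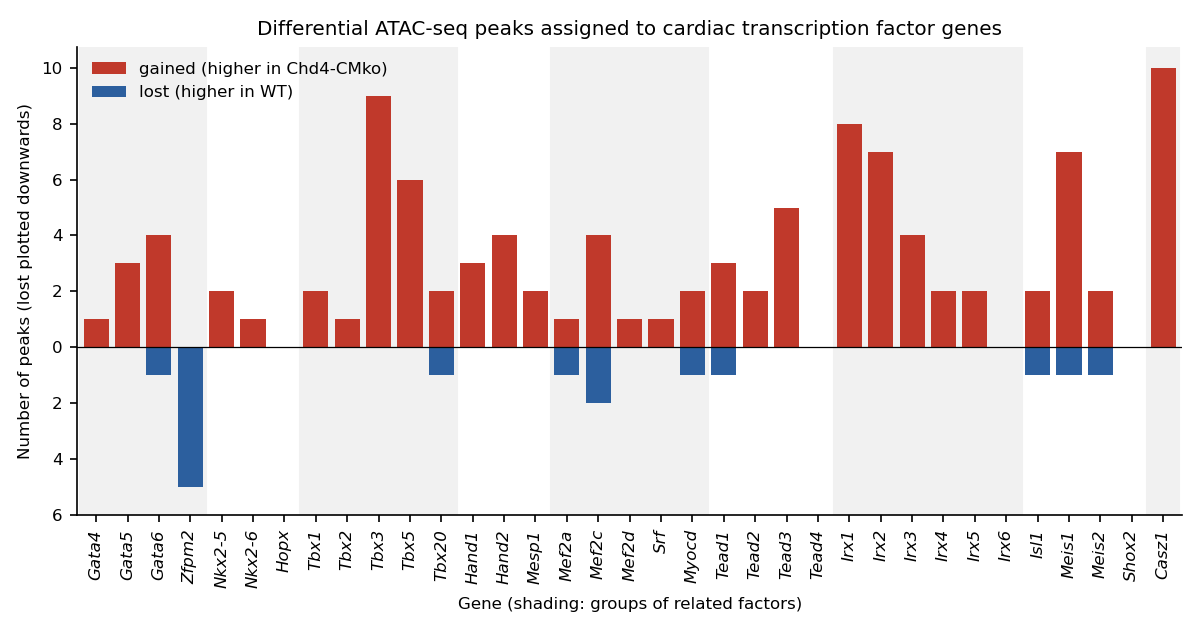
Number of gained peaks (red, upwards) and lost peaks (blue, downwards) assigned to each of the 35 genes, with shading by group of related factors. *Casz1* had 10 gained peaks and *Tbx3* 9, *Zfpm2* had 5 lost peaks and no gained peak, and the Iroquois, NK homeobox and bHLH groups had no lost peak.

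GATA factors bind the sequence AGATAA and start the cardiac programme, and FOG2, the product of *Zfpm2*, is their cofactor in the heart and can repress their targets. The 3 GATA genes had 8 gained peaks and 1 lost peak. *Gata5* had 3 gained peaks, at 14.2 kb downstream and at 20.2 and 33.8 kb upstream of its start site, with scores of 282, 160.5 and 58. The score is the authors' value for a peak, on a scale that is not stated. It is compared here only within a list, apart from a setting in the closing section that applies a common score limit to both lists. The highest *Gata5* peak stood at percentile 96.8 of the gained list. *Gata4* had 1 gained peak, 45.9 kb upstream, with a score of 164 (percentile 86.9), in the interval whose GATA and TEAD motifs are shown above.

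*Gata6* had peaks of both kinds close together. Its lost peak, 5.38 kb upstream of the start site, had a score of 75.8, the highest among the lost peaks of the 35 genes (percentile 91.3 of the lost list). A gained peak lay 6.35 kb from it, at 11.9 kb upstream, with a score of 110. The other 3 gained peaks of *Gata6* lay 47.1, 181 and 187 kb downstream, with scores of 76.5, 89.5 and 170.5.

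*Zfpm2* went the other way from the GATA genes. All 5 of its peaks were lost peaks, all were intronic, and they lay 159, 185, 186, 314 and 430 kb downstream of the start site in a gene body of 450 kb (chr15:40655035-41104592, plus strand). The peak at chr15:40824424-40824574 had a score of 66.8 (percentile 87.4 of the lost list). The other 4 scored 22.0, 19.8, 18.7 and 21.2, all within the lowest 12.7% of the list. A pair of them was separated by 772 bp. The last peak, at chr15:41095116-41095266, was nearer to the start site of the neighbour *Oxr1* than to that of *Zfpm2*. Of all protein-coding genes, 13 had at least 5 lost peaks, and 2 of these 13 had no gained peak. Its paralogue *Zfpm1*, which encodes FOG1, the cofactor of GATA1 in blood, had 10 gained peaks and 0 lost peaks.

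NKX2-5 is the NK homeobox factor of cardiac progenitors and myocytes. *Nkx2-5* had 2 gained peaks, 27.8 kb downstream (score 180, percentile 89.1) and 30.2 kb upstream (score 26.5, percentile 4.0). *Nkx2-6*, a relative expressed in the pharyngeal region and outflow tract, had 1 gained peak over its start site at chr14:69171675-69171825 with a score of 66.5 (percentile 53.6), and this interval is also over or near that of the non-coding gene *1700092C10Rik*. *Hopx*, a homeodomain protein that does not bind DNA by itself, had no peak in a territory of 97.0 kb.

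T-box factors divide the heart into chambers and conduction tissue. TBX5 activates chamber genes and TBX2 and TBX3 repress them in the atrioventricular canal and the conduction system. All 5 T-box genes had a gained peak, 20 in all, and *Tbx20* had the only lost one. *Tbx3* had 9 gained peaks, all upstream, from 56.9 to 471 kb from the start site, with scores between 27 and 119. None of them lay within 10 kb of the gene. *Tbx5*, its neighbour on chromosome 5, had 6, namely 1 at 9.37 kb upstream (score 144.5), 2 in its introns (83.5 and 120.5) and 3 at 86.3, 112 and 129 kb downstream (143, 46.5 and 117). Together the 15 peaks of this pair of genes spread over 765 kb.

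*Tbx2* had 1 gained peak, at chr11:85830050-85830200, 2.35 kb upstream of its start site, with a score of 240.5 (percentile 94.6). This was the only other gained peak within 3 kb of a coding start site of its own gene, beside the 4 that covered one. *Tbx1*, needed for the outflow tract and the pharyngeal arches, had 2 gained peaks at 10.9 and 13.7 kb upstream (88.5 and 183), 2.65 kb apart. *Tbx20* had gained peaks at 18 kb (31.5) and 100 kb (112.5) upstream and a lost peak between them, 79.8 kb upstream with a score of 41.0 (percentile 60), which held a TEAD motif and an E-box.

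HAND1 and HAND2 are bHLH factors of the left and right ventricle and the outflow tract, and MESP1 marks the earliest cardiac mesoderm. These 3 genes had 9 gained peaks and no lost peak. *Hand1* had gained peaks at 4.76 kb downstream (129.5) and at 71.6 and 77.2 kb upstream (45 and 95). *Hand2* had 4, all upstream, and the nearest pair, at 7.96 and 15.8 kb (84 and 38), lay within 3 kb of annotated start sites of the non-coding RNA *Hand2os1*. *Mesp1* had 2, at 3.41 kb upstream (82) and at 21.4 kb downstream in an intron of *Wdr93* (142).

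MEF2 factors and SRF act on contractile genes, and myocardin, the product of *Myocd*, is a coactivator of SRF. This group had 9 gained and 4 lost peaks, and its 9 gained peaks were spread over the list, from percentile 7.3 to 86.1, with 3 of them at or above the list's median. *Mef2c* had 4 gained peaks. That in an intron of the gene, 8.16 kb upstream of an internal start site, had a score of 113.5, and the others, at 274 kb downstream and at 296 and 411 kb upstream, scored 29 to 41.5. The 2 lost peaks of *Mef2c* were both intronic, at chr13:83584013-83584163 (score 22.0) and chr13:83604410-83604560 (score 42.5), and the smallest distance between its gained and lost peaks was 68.7 kb.

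*Myocd* had gained peaks 71.8 and 79.3 kb upstream, in an intron of the non-coding gene *Gm12295* (61.5 and 159), and a lost peak in its own intron 11.8 kb from a start site, with a score of 43.2 (percentile 64.6). *Mef2a* had a gained peak 107 kb upstream (54.5) and a lost peak 70.5 kb upstream (49.1, percentile 73.9), within 3 kb of a start site of the non-coding gene *Gm33926*. *Mef2d* had 1 gained peak 8.72 kb upstream (153.5). The 1 gained peak of *Srf* (46) fell within the 10 kb window but lay nearer to a start site of *Cul9*, at 7.47 kb.

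TEAD factors are the DNA-binding partners of YAP and TAZ, the effectors of the Hippo pathway. Their 10 gained peaks had a median score of 147.25 and a median percentile of 84.2. Of these 10 peaks, 6 lay within 3 kb of some annotated start site, and promoter peaks scored higher in the list as a whole, with a median of 99.0 against 54.0 for the rest of the gained peaks outside the 35 genes. The part of this in the scores of the TEAD genes was not tested. *Tead1* had the highest score of all 103 gained peaks, 421.5 (rank 66 of 12991), over its start site. Its other gained peaks were 78.9 kb upstream (109) and in an intron (50), and a lost peak was in another intron, 11.2 kb from an internal start site at chr7:112770750-112770900 (57.5, percentile 81.9 of the lost list). The gained and the lost intronic peaks were 38.5 kb apart.

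*Tead3* had 5 gained peaks in a territory of 39.1 kb, the most per Mb of the 35 genes. The peak over its start site, at chr17:28350299-28350449, had a score of 272.5. An intronic peak 5.85 kb downstream had the same score, and another at 9.43 kb scored 261.5. All 3 were above percentile 95 of the gained list. The other 2 had scores of 146.5 and 127. The former lay inside *Tead3*, within 3 kb of a start site of a non-coding transcript of that gene, but its nearest coding start site was that of *Rpl10a*. The latter lay outside *Tead3* and covered a start site of *Tulp1*. Both gained peaks of *Tead2* (113 and 148) covered start sites of its neighbours *Dkkl1* and *Slc6a16*. *Tead4* had no peak in a territory of 119 kb.

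Iroquois factors pattern the ventricles and the conduction system and lie in 2 clusters, with *Irx1*, *Irx2* and *Irx4* on chromosome 13 and *Irx3*, *Irx5* and *Irx6* on chromosome 8. The cluster on chromosome 13 held 17 gained peaks over 1738 kb and that on chromosome 8 held 6 over 754 kb. The 6 genes had 23 gained and no lost peaks, at 7.54 gained peaks per Mb. Their median score was 47.0 and their median percentile 34.1, and 5 of 23 were at or above the median of the gained list. Only 1 of the 23 was a promoter peak.

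*Irx1* had the 2 highest of them. The peak over its start site, at chr13:71963672-71963822, had a score of 222.5 (percentile 93.5), and an intergenic peak 171 kb upstream, at chr13:72134398-72134548, scored 188.5 (percentile 90.3). Its other 6 gained peaks scored from 29 to 59.5. *Irx2* had 7 gained peaks, from 7.58 kb to 302 kb from its start site on either side, with scores of 25 to 82. *Irx3* had 4 (37 to 72), and that 176 kb downstream lay in an intron of *Fto*. *Irx4*, the ventricle-specific member, had 2 (46.5 and 54), *Irx5* had 2 (33.5 and 37.5) and *Irx6* had none.

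ISL1 marks second heart field progenitors, MEIS1 and MEIS2 are homeobox partners of PBX and HOX proteins, and SHOX2 is needed in the sinoatrial node. *Meis1* had 7 gained peaks with scores of 23.5 to 149.5. The highest, at chr11:18973959-18974109, was in an intron 44.6 kb downstream of the start site. A pair upstream, at 175 kb, was 616 bp apart, the shortest gap between neighbouring gained peaks of any of the genes. The lost peak of *Meis1* was inside the gene at chr11:18892604-18892754, within 3 kb of a start site of the non-coding gene *2900018N21Rik* (score 23.8), and the nearest gained peak was 20.9 kb away.

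*Meis2* had 2 gained peaks 177 and 195 kb downstream (49.5 and 56) and a lost peak 16.8 kb downstream (41.9), all inside the gene. The gained peak at 195 kb and the lost peak lay within 3 kb of a start site of a non-coding transcript of *Meis2* itself. *Isl1* had gained peaks at 21.1 kb upstream (51.5) and 466 kb downstream (78.5) and a lost peak at 567 kb downstream (34.4), in a territory of 962 kb. *Shox2* had no peak in 354 kb.

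*Casz1* encodes a zinc finger factor needed for heart morphogenesis. It had the most gained peaks of the 35 genes, 10 in 293 kb, or 34.2 per Mb, and all 10 were above the median of the gained list, with scores of 79 to 262.5. The highest, at chr4:148830420-148830570, was in an intron 26.0 kb downstream of a start site, and the next, at chr4:148783832-148783982, was 20.4 kb upstream (242.5). A run of 3 intronic peaks, at chr4:148879210-148879360, chr4:148880983-148881133 and chr4:148882660-148882810, had gaps of 1.62 and 1.53 kb and scores of 135.5, 161.5 and 116. No peak covered a start site of *Casz1*.

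**Figure D2:**
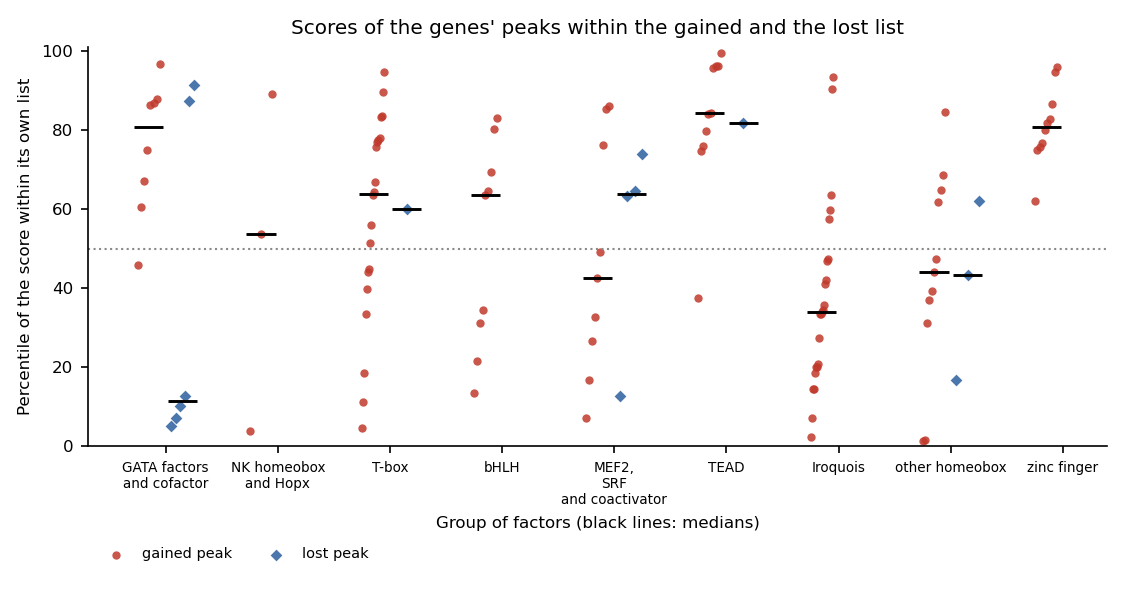
Percentile of each peak's score within its own list, by group of factors, with gained peaks in red, lost peaks in blue, medians as black lines and the middle of each list dotted. Gained peaks of TEAD genes had a median percentile of 84.2 and those of Iroquois genes 34.1.

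Over all 103 gained peaks, the median score was 78.5, against 62.5 over the other gained peaks, and 58 of 103 (56.3%, 46.7 to 65.5%) were at or above the median of the list. A percentile of 90 or more was reached by 10 gained peaks of 6 genes. The 15 lost peaks had a median score of 41.0, against 36.8 over the other lost peaks, and 8 of 15 were at or above their list's median. Neither share was separated by its interval from an even division of the list.

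Few of the peaks were at the start sites of these genes. Of the gained peaks, 5 lay within 3 kb of a coding start site of the gene itself, 56 lay at 3 to 100 kb and 42 beyond 100 kb. Counting coding start sites of neighbours too, 8 of 103 lay within 3 kb (7.77%, 3.99 to 14.6%), against 18.1% of the other gained peaks. Of the 15 lost peaks, 0 lay within 3 kb of a coding start site of the gene, which allows up to 20.4%. Beyond 100 kb lay 7 (46.7%, 24.8 to 69.9%), 5 of them at *Zfpm2*. Of the other lost peaks, 6.63% lay within 3 kb of the nearest coding start site and 24.3% beyond 100 kb. The median distance from the gene's nearest own start site was 56.9 kb for gained and 79.8 kb for lost peaks. Gained peaks were upstream in 61 cases and downstream in 38. The body of a gene to which the peak was assigned, neighbours included, held 26 of the 103 gained peaks (25.2%, 17.8 to 34.4%), against 54.8% of the other gained peaks. For lost peaks it was 11 of 15 (73.3%, 48.0 to 89.1%), 5 of them at *Zfpm2*, against 57.6% of the other lost peaks, a share within the interval.

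**Figure D3:**
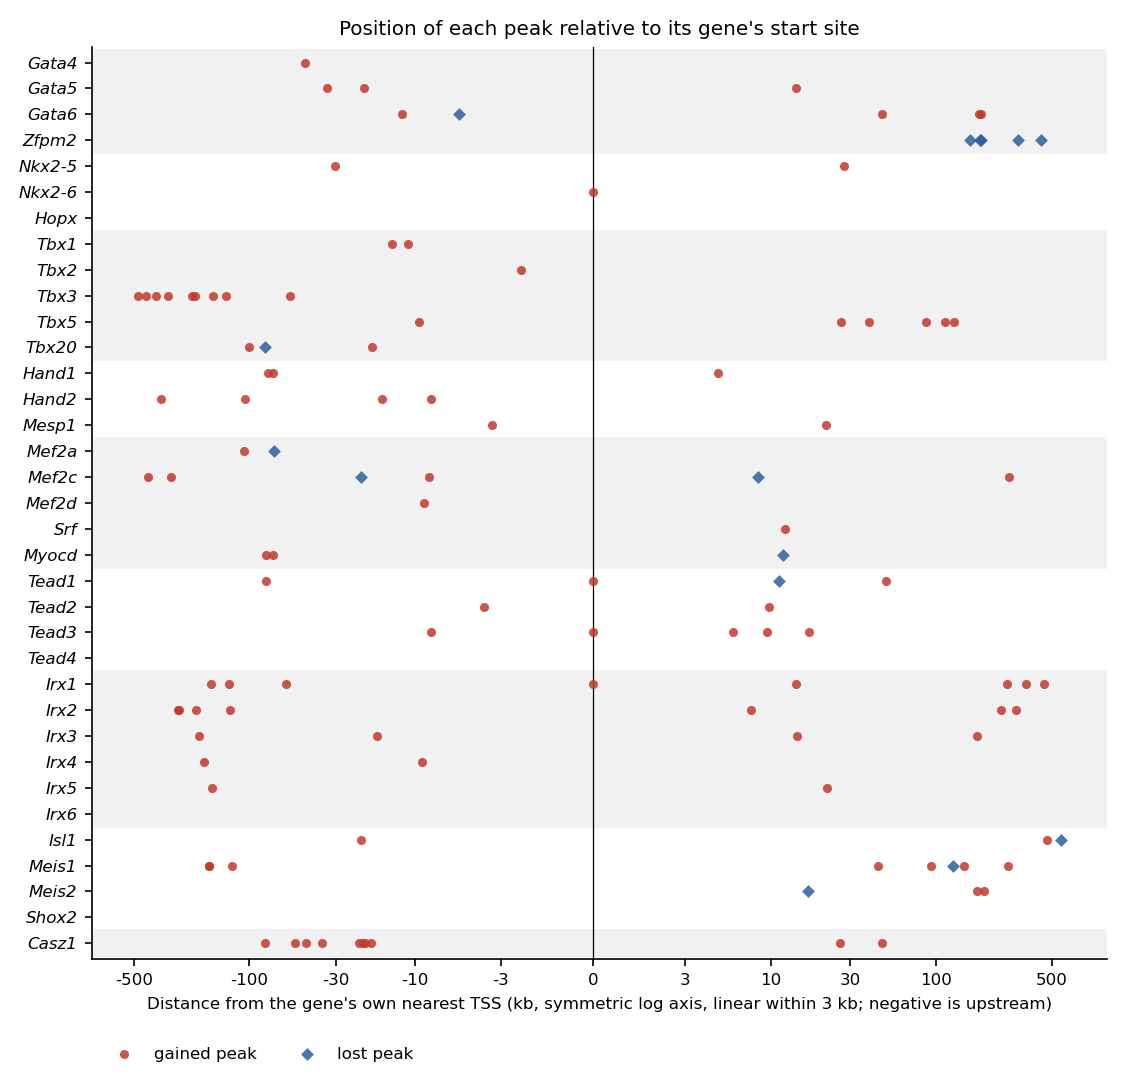
Distance in kb of each gained peak (red circles) and lost peak (blue diamonds) from the nearest of its gene's own start sites, on a symmetric log axis that is linear within 3 kb, with upstream to the left. Intervals of *Nkx2-6*, *Tead1*, *Tead3* and *Irx1* cover a start site, and all 9 gained peaks of *Tbx3* are upstream.

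A peak was classed as promoter if it lay within 3 kb of any annotated start site, coding or not. By this measure 17 of 103 gained peaks were promoter peaks (16.5%, 10.6 to 24.9%), against 31.0% of the other gained peaks. Of these 17, only 8 were near a start site of a coding transcript and 5 near that of the gene itself, and the other 9 were near the start of a non-coding transcript such as *Hand2os1* alone. Intergenic peaks made up 54.4% (44.8 to 63.7%), against 31.9%, and intronic peaks 28.2% (20.4 to 37.5%), against 33.0%. The 15 lost peaks were intronic in 9 cases (60%, 35.7 to 80.2%), at promoters of non-coding transcripts in 4 (26.7%, 10.9 to 52.0%) and intergenic in 2 (13.3%, 3.74 to 37.9%). Among these 4 was the lost peak of *Meis2*, near a non-coding transcript of *Meis2* itself. Of the other lost peaks, 47.0% were intronic, 16.8% at promoters of either kind and 32.9% intergenic, and each interval included its share. Gained peaks beyond 100 kb from any coding start site were 40.8% (31.8 to 50.4%), against 16.6% of the other gained peaks.

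Since the territories are wide, the distances were also read against the bases available at each distance. Bases over 100 kb from a start site made up 56.6% of those nearest to these genes and 39.8% of those of all genes. Within 3 kb of a start site the genes carried 13.7 gained peaks per Mb (exact Poisson 95% interval 4.45 to 32), against 13.4 over all genes. At 3 to 10 kb they carried 14.9 (7.15 to 27.4), against 6.46, and at 10 to 50 kb 12.8 (8.65 to 18.3), against 6.25. At 50 to 100 kb the values were 6.05 (3.02 to 10.8) and 5.02. Beyond 100 kb they were 6.20 (4.47 to 8.39) and 2.07. The interval thus included the density of all genes within 3 kb and at 50 to 100 kb and lay above it at the other distances. These intervals treat peaks as independent, while several peaks often belonged to the same gene. Many of the gained peaks beyond 100 kb were those of *Tbx3*, *Irx1*, *Irx2* and *Meis1*, and the density without these genes was not tested. For lost peaks the interval included the value of all genes at every distance, with 0.886 per Mb beyond 100 kb (0.325 to 1.93), against 0.638.

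**Figure D4:**
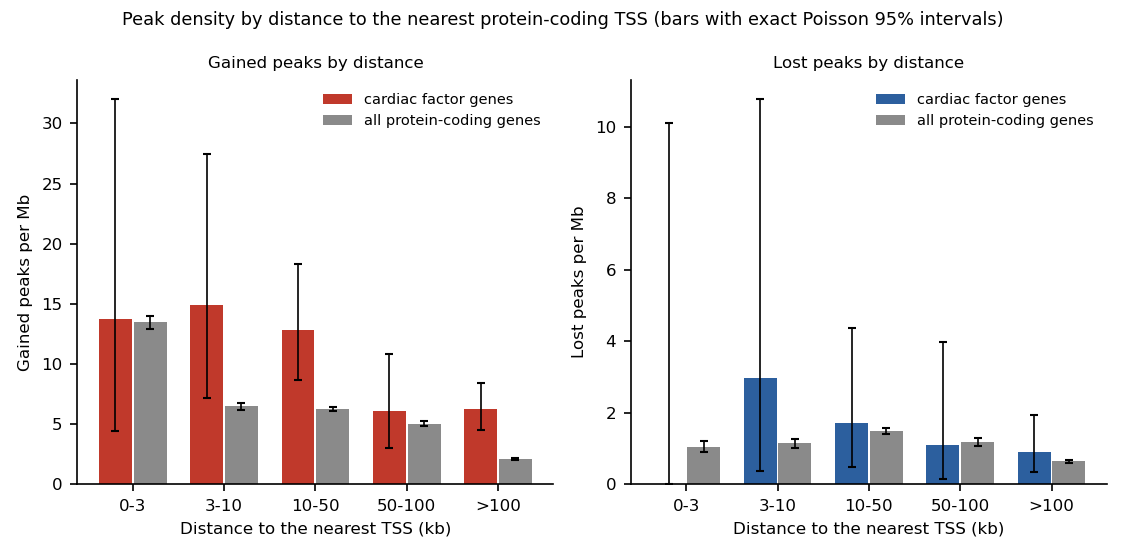
Gained peaks (left) and lost peaks (right) per Mb of sequence at increasing distance from the nearest protein-coding start site, for the cardiac factor genes (colour) and all protein-coding genes (grey), with exact Poisson 95% intervals. Beyond 100 kb the cardiac factor genes carried 6.20 gained peaks per Mb against 2.07 for all genes, and within 3 kb 13.7 against 13.4.

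In base composition the gained peaks were like the rest of their list. Their GC content was 55.6% ± 7.36 (SD over 103 peaks), against 56.7% ± 8.56 over the other gained peaks. The 17 promoter peaks had 64.1% and the 86 others 53.9%. The start site peak of *Tead3* had the highest GC content, 78.8%. Lost peaks had 47.9% ± 6.02 (SD over 15 peaks), against 50.5% ± 5.84. Repeats covered at least 50% of the interval in 8 gained peaks (7.77%, against 10.2% of the other gained peaks) and 1 lost peak (6.67%, against 7.14%).

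At least 1 motif of the cardiac factors was present in 56 of 103 gained peaks (54.4%, 44.8 to 63.7%), against 51.0% of the other gained peaks. The MEIS motif was in 24 gained peaks of 17 genes (23.3%, 16.2 to 32.3%), against 20.2%. The GATA motif was in 14 peaks of 10 genes (13.6%, 8.27 to 21.5%), against 11.1%, and those genes included *Gata4* and *Gata6*. The TEAD motif was in 11 peaks of 11 genes (10.7%, 6.07 to 18.1%), against 11.4%. The MEF2 motif was in 6 peaks (5.83%, 2.70 to 12.1%), against 3.24%, none of them at a MEF2 gene. The NKX2-5 motif was in 6 peaks (5.83%), against 6.87%, the SRF motif in 3 (2.91%), against 2.46%, and the T-box motif in 1, at *Meis1* (0.971%), against 1.67%. The E-box was in 7 (6.80%, 3.33 to 13.4%), against 12.6%. For each of these 8 motifs the interval included the share of the other gained peaks. Outside the cardiac factors, the KLF motif was in 14.6% of the peaks, against 13.9%, the NFY motif in 1.94% (0.534 to 6.81%), against 5.04%, and the CTCF motif in 0 of 103, which by the Wilson interval allows up to 3.6%, against 0.287%.

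**Figure D5:**
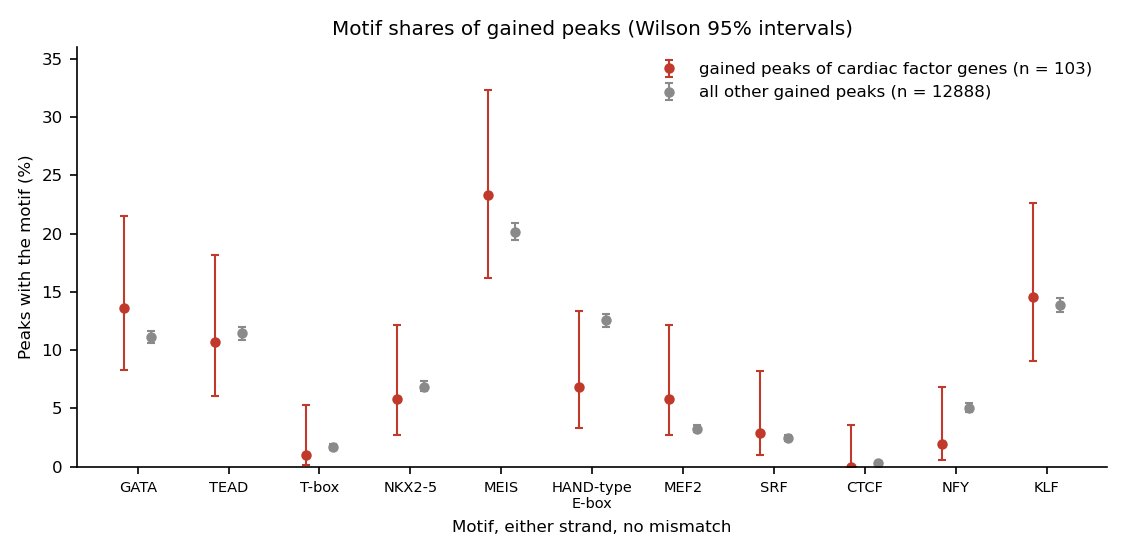
Share of gained peaks that hold each of 11 motifs, for the 103 peaks of the cardiac factor genes (red) and the 12888 other gained peaks (grey), with Wilson 95% intervals. The MEIS motif was the most frequent in both (23.3% and 20.2%), and each red interval includes the grey share.

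Of the 15 lost peaks, 5 held a cardiac motif (33.3%, 15.2 to 58.3%), against 55.9% of the other lost peaks. The TEAD motif was in 4, at *Zfpm2* in 2 peaks, *Tead1* and *Tbx20* (26.7%, 10.9 to 52.0%), against 18.1%. MEIS, NKX2-5, T-box and SRF motifs were in 0 of the 15, which by the Wilson interval allows up to 20.4%. Of the other lost peaks, 17.8% held the MEIS, 9.96% the NKX2-5, 0.623% the T-box and 0.293% the SRF motif, so that a lower share was not detectable at this number of peaks.

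Related genes were counted by the same rule, and their counts stand beside the 38.2% of all protein-coding genes with a gained and the 11.1% with a lost peak. Of 24 paralogues in the same families, such as *Gata1*, *Tbx4*, *Eomes* and *Meis3*, 14 had a gained peak (58.3%) and 4 a lost peak (16.7%), among them *Tbx18* with 2 lost peaks and no gained one. Of 24 cardiac genes known as targets of these factors, 13 had a gained peak (54.2%), among them *Nppa*, *Actc1*, *Tnnt2* and *Smyd1*, and only *Ryr2*, the calcium release channel, had a lost peak, with 3 lost and 3 gained (4.17% of the list). The median territory was 132 kb for the paralogues and 73.1 kb for the targets, against 59.3 kb over all genes, and the shares were not adjusted for it. Per Mb of territory, the paralogues carried 7.16 gained and 1.12 lost peaks and the targets 6.09 and 0.63, beside 8.42 and 1.23 at the 35 genes and 4.91 and 1.04 over all genes. Marker genes of cell types in or near the heart were counted in the same way, in lists of 6 to 10 genes whose differences were not tested and whose territories differ. A gained peak was at 5 of 8 cardiomyocyte, 8 of 10 endothelial and endocardial, 4 of 8 epicardial, 1 of 7 erythroid, 3 of 6 neural crest and 7 of 8 skeletal muscle markers. A lost peak was at 0 of 8, 4 of 10, 4 of 8, 4 of 7, 2 of 6 and 0 of 8 of them. Gained peaks per Mb came to 11.9 for the cardiomyocyte, 8.10 for the endothelial and endocardial, 4.25 for the epicardial, 4.25 for the erythroid, 2.90 for the neural crest and 36.1 for the skeletal muscle markers, so that a density like that of the 35 genes or above it was also found in other lists. Lost peaks per Mb, with the lists in the same order, came to 0, 1.62, 5.10, 34.0, 1.16 and 0. The erythroid genes with a lost peak were *Hbb-y*, *Hba-x*, *Hbb-bh1* and *Alas2*, which had 8 lost peaks in all, some of them assigned to more than 1 of these genes. The epicardial ones were *Wt1*, *Tbx18*, *Tcf21* and *Aldh1a2*, and *Aldh1a2* also had 2 gained peaks. Differential lists do not give the level of a marker in either genotype, so the makeup of the hearts could not be read from them, and its part in the counts of the 35 genes was not tested.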

How the data were processed

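ATAC-seq was performed on 4 WT and 4 *Chd4-CMko* samples of pooled hearts at E10.5. The authors used BWA-MEM for alignment to mm10, HOMER 4.10.3 for peak calling with a 2-fold limit for differential peaks, and ChIPseeker 1.20.0 for annotation. How duplicates and the Tn5 offset were treated and how samples were combined is not given in the sources used here, and each can change which peaks are listed. The 2 deposited lists hold a peak score from the authors whose scale is not stated. There were 0 columns of values per sample, so no replicate could be compared. The paper states a sequencing depth per sample in general, and the depth reached by each library is not given.

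Peaks were assigned with GENCODE M21 by the distance from the edge of the interval to the start sites of protein-coding transcripts, and ties went to all genes. No peak was assigned to 2 of the 35 genes, and 14 also belonged to another gene. Promoters took precedence in the classes, then untranslated regions, exons and introns, and the rest were intergenic. Territory was the sequence the assignment gives to a gene without unsequenced bases. For densities by distance, peaks were placed by their centre and nearest start site alone. Analyses used Python 3.11.15, numpy 2.4.6, pandas 2.3.3, scipy 1.17.1 and statsmodels 0.14.6, and the assignment, territory, motif and interval steps were checked on simulated data. Alternatives were other assignment distances, start site sets, score limits and longer motifs.

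Every gene with a peak is named. Genes with peaks of both kinds, with a peak at an own start site, or among the 5 with most gained or most lost peaks were to be given in full. Of these, *Mef2c*, *Tbx3*, *Irx1*, *Irx2*, *Meis1* and *Casz1* are given partly by ranges, and coordinates are printed for some of the peaks only. Gene lists were written from general knowledge. The members and lists were chosen with earlier results of these data known. One marker gene and some of the peak sequences, among them those of lost peaks of *Mef2a* and *Mef2c*, are not reported here.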

Additional observations from a re-analysis of the deposited data

How the results depend on the processing

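Of 80 summary values recomputed under an alternative, 59 stayed within the limits set for a change (1.5 times for a count) and 21 moved. The assignment distance mattered most. Within 10 kb of the gene body alone, 34 gained peaks remained, gained peaks were 73.9% of the peaks (82.8% of the other peaks so assigned), 38.2% of gained peaks were at promoters (39.8% of the others) and lost peaks came to 4.29 per Mb. Within 3 kb of a start site of the gene, 5 gained and 0 lost peaks were left, at 5 and 0 of the genes, so that both the gained share (92.8% of the others) and the promoter share (100% of the others, by construction) became 100%, at a density of 13.6 gained and 0 lost per Mb. With the nearest start site up to 100 kb, there were 64 gained peaks, 82.1% of the peaks (83.2% of the others), 25.0% of them at promoters (33.7% of the others), and 2.36 lost peaks per Mb. Among peaks at or above the median score of their list, 58 gained and 8 lost peaks remained, at 4.74 and 0.654 per Mb. Under a common score limit 8 lost peaks remained, at 0.654 per Mb, a setting that takes the scores of both lists to be on the same scale, which is not stated. Fewer peaks or bases enter under each of these settings by construction, and densities over all genes are not given at them. The nearest start site alone, all transcripts of coding genes, distances from the peak centre and leaving out *Casz1* moved none of these values past the limits. With longer motifs, the shares of gained peaks were 6.80% (3.33 to 13.4%) for GATA, against 5.44% of the other gained peaks, and 5.83% (2.70 to 12.1%) for TEAD, against 3.74%. For TEAD the order turned from that of the shorter motif, and all of these intervals included the share of the others.

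No paired analysis was possible because the lists hold no value per sample, and leaving out a replicate was not possible for the same reason. The lists show which sites passed the authors' limits and not the size or spread of a change.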
